A study of Mus musculus with 12 samples.

Results

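The BMP pathway and Id genes were 9 genes, *Id1*, *Id2*, *Id3*, *Bmp4*, *Smad6*, *Smad7*, *Bambi*, *Msx1* and *Msx2*, taken by name from the 24627 genes counted in each library. All 9 passed the filter on low counts (1 CPM or more, meaning counts scaled to the library total, in 6 or more of the 12 libraries), as did 13191 genes in all. The lowest of their 108 counts was 155 and the highest was 6750.

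RNA‐seq was performed in mouse embryonic stem cells (ESCs) after 2 days of differentiation by LIF withdrawal. All 3 lines were XY and carried an endogenous *Xist* gene driven by a TetO promoter, which doxycycline (DOX, 1.5 µg/ml) switches on. *Xist* FL expresses the full‐length RNA, *Xist* ΔA lacks the A‐repeat and *Xist* ΔB+C lacks the B and C repeats. Each line was grown with DOX (DOX) or without it (noDOX), with 2 replicates in each of the 6 groups. *Xist* ΔB+C was made from *Xist* FL by CRISPR/Cas9, and each line stands for 1 clone, so that a difference between lines cannot be told apart from a difference between clones. The XY cells have a single X chromosome, and the noDOX groups carry the same promoter and mutations as the DOX groups. *Xist* itself was at 2.44 to 8.38 CPM in the noDOX libraries and at 557 to 1830 CPM in the DOX libraries, which matches the labels. The libraries held 31337490 to 41240470 counts, and *Xist* ΔB+C DOX replicate 2 was prepared from 100 ng of RNA where the others used 1000 ng. The 7 pluripotency markers examined (*Pou5f1*, *Nanog*, *Sox2*, *Zfp42*, *Esrrb*, *Klf4* and *Tfcp2l1*) summed to 1905 to 2962 CPM, and the 4 primed epiblast markers (*Fgf5*, *Otx2*, *Pou3f1* and *Dnmt3b*) to 1118 to 2151 CPM.

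BMP ligands such as BMP4 bind type I and type II serine/threonine kinase receptors, which phosphorylate SMAD1, SMAD5 and SMAD9. These enter the nucleus with SMAD4 and switch on target genes, with the *Id* genes among the most direct ones. In ESCs, BMP signalling through Id proteins is known to restrain neural differentiation, and BMP4 later takes part in forming mesoderm at the primitive streak. The pathway also induces its own brakes, among them the inhibitory SMADs, SMAD6 and SMAD7, and BAMBI, a receptor‐like protein without a kinase domain.

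On mm10 (GENCODE vM21), *Id1* lies at chr2:152736251-152737410, *Id2* at chr12:25093799-25097140, *Id3* at chr4:136143497-136145755 and *Bmp4* at chr14:46383520-46390669. *Smad6* lies at chr9:63953076-64022059, *Msx1* at chr5:37820485-37824583 and *Msx2* at chr13:53466884-53473074, while *Smad7* and *Bambi* lie on another autosome, so that none of the 9 is X‐linked.

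SMAD complexes bind short DNA motifs, so the sequence before the RefSeq start of 3 members is given here: *Id3* and *Msx1*, which passed a test of DOX against noDOX, and *Id2*, a relative of *Id3*. The table of promoters used here matched 6 of the 9 members, and sequences of *Id1*, *Smad7* and *Bambi* are not shown. Each stretch is the 250 bases before the start of the RefSeq gene on build GRCm38.p6, written 5′ to 3′ on the strand of the gene. Capitals mark the palindrome GGCGCC, which is known from BMP‐responsive elements, and the SMAD box CAGAC or its reverse GTCTG, searched on both strands. The *Id2* stretch lies at chr12:25096093-25096342 on the minus strand, the *Id3* stretch at chr4:136143572-136143821 on the plus strand and the *Msx1* stretch at chr5:37824586-37824835 on the minus strand.
Id2: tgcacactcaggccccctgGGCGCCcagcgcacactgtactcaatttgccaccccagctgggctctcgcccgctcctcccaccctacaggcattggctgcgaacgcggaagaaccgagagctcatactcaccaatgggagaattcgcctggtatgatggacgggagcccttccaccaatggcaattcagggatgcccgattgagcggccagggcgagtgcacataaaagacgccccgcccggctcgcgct
Id3: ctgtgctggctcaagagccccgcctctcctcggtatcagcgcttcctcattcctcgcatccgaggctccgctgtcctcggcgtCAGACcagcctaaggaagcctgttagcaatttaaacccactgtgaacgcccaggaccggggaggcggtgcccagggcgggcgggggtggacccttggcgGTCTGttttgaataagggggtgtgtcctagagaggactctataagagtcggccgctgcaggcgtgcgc
Msx1: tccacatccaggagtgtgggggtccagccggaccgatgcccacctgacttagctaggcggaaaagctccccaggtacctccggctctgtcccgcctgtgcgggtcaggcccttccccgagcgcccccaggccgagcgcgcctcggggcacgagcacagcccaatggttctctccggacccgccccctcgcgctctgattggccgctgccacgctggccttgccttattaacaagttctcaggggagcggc

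The RefSeq starts used differ from the outer GENCODE bounds given above, so the *Id2* and *Id3* stretches lie inside those gene intervals, as does that of *Msx2*, while the *Msx1* stretch lies outside. The *Id2* stretch held 1 match to the palindrome and none to the SMAD box, and the *Id3* stretch held 2 matches to the SMAD box and none to the palindrome. The *Msx1* stretch held neither motif, nor did those of *Bmp4*, *Smad6* and *Msx2*, which are not printed. Of 27025 promoters of the same length, 9.54% held the palindrome and 42.1% the SMAD box. These matches are a description of letters in a window, and binding was not measured.

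The 9 genes differed widely in level. Scaled per kilobase of exon, *Id1* had the highest mean over the 12 libraries, 144 CPM per kb, followed by *Id2* at 58.2 and *Id3* at 55.8 CPM per kb. The ranges of *Id2* (44.3 to 76.0 CPM per kb) and *Id3* (47.6 to 63.8 CPM per kb) overlapped. *Smad7* came next at 24.7 CPM per kb, with a range of 21.4 to 27.5 that overlapped no other member. *Msx1* had a mean of 9.72 CPM per kb, with a range that overlapped that of *Msx2*, and *Msx2*, *Bmp4*, *Smad6* and *Bambi* lay between 4.57 and 2.53 CPM per kb with overlapping ranges. In every library the 3 *Id* genes had more CPM per kb than *Bmp4*, *Msx1* and *Msx2*.

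**Figure D1:**
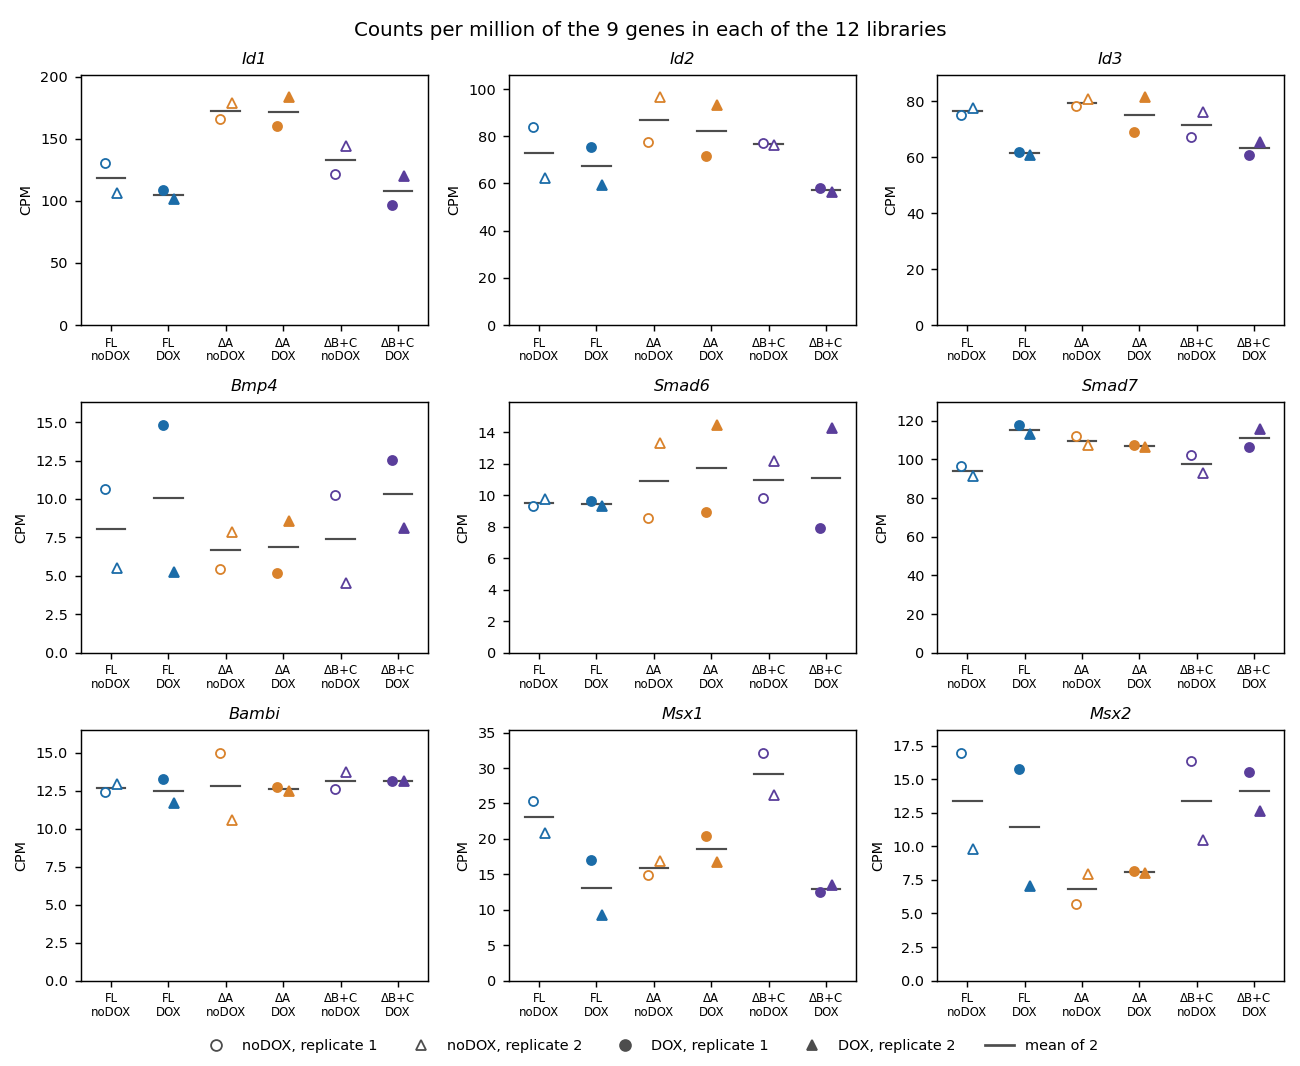
CPM (y axis) of each of the 9 genes in the 12 libraries, grouped by line and condition (x axis). Open symbols are noDOX and filled symbols DOX, circles are replicate 1 and triangles replicate 2, and the bar is the mean of the 2 replicates. *Msx1* fell from 29.2 to 13.0 CPM in *Xist* ΔB+C, *Id1* was highest in the 4 *Xist* ΔA libraries, and *Bmp4*, *Smad6* and *Msx2* varied as much between replicates as between conditions.

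The comparison of DOX with noDOX in each line asks whether the pathway responded to *Xist* expression over the first days of differentiation. In *Xist* ΔB+C, *Msx1* fell to 0.436 of its noDOX level and was the 1 member of 9 that passed the test, where 2.94% of all tested genes did. In *Xist* FL, 0 of 9 members passed without the replicate number in the model, where 1.24% of all genes did. With the replicate number as a block, 3 of 9 passed in *Xist* FL (*Id3* and *Msx1* lower, *Smad7* higher), where 13.9% of all genes did, and again only *Msx1* of the 9 passed in *Xist* ΔB+C, where 21.9% of all genes did. In *Xist* ΔA no member passed in either fit. The block is given beside the other fit wherever it changes a call, since libraries with the same replicate number deviated together in every pair of groups.

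*Msx1* encodes a homeobox transcription factor that is a classical BMP target in embryonic tissues. In *Xist* ΔB+C it was at 32.1 and 26.2 CPM without DOX and at 12.5 and 13.4 CPM with DOX. Both DOX libraries lay below both noDOX libraries, and the log2 fold change was −1.20 ± 0.26 (SE, adjusted p = 0.0434 by edgeR's quasi‐likelihood test). The adjusted p was 0.00422 with the replicate block, at −1.19 ± 0.21.
In *Xist* FL, *Msx1* was at 25.4 and 20.8 CPM without DOX and at 17.0 and 9.27 CPM with DOX. The groups again did not overlap, with a log2 fold change of −0.82 ± 0.26 that passed only with the block (adjusted p = 0.197 without it and 0.0275 with it). In *Xist* ΔA the gene was at 14.9 and 16.9 CPM without DOX and at 20.4 and 16.8 CPM with DOX. These values overlapped, and the log2 fold change was 0.27 ± 0.25 (adjusted p = 1).

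The *Msx1* result in *Xist* ΔB+C depended on the libraries that set the spread. Without the block, its adjusted p was between 0.0635 and 0.185 when any 1 of the 10 libraries other than the 2 of *Xist* FL DOX was left out, with fold changes between −1.32 and −1.06. Without *Xist* ΔB+C DOX replicate 2, the low‐input library, it was −1.26 (adjusted p = 0.169). With the block the call held without each of the 12 libraries in turn, at adjusted p of 0.000431 to 0.0442. The blocked call in *Xist* FL was lost without *Xist* FL noDOX replicate 1 (adjusted p = 0.0936), noDOX replicate 2 (0.156), DOX replicate 2 (0.121, with the fold change at −0.50) or *Xist* ΔB+C noDOX replicate 1 (0.0508).

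Markers of the primitive streak and early mesoderm were examined beside *Msx1*. The 4 markers examined (*T*, *Mixl1*, *Eomes* and *Mesp1*) summed to 175 to 241 CPM in *Xist* FL noDOX and 35.8 to 132 CPM in *Xist* FL DOX. They summed to 106 to 203 CPM in *Xist* ΔB+C noDOX and 38.9 to 135 CPM in *Xist* ΔB+C DOX. In *Xist* ΔA they were low in both conditions, at 37.7 to 47.7 CPM without and 38.4 to 60.9 CPM with DOX. *Eomes*, a T‐box factor of the streak, was lower with DOX by 1.59 ± 0.29 on the log2 scale in *Xist* FL (adjusted p = 0.0427), and the decrease in *Xist* ΔB+C was 1.38 ± 0.29 (adjusted p = 0.0431). *Mixl1* passed only with the block, at −1.43 ± 0.22 (adjusted p = 0.00194) in *Xist* FL, and *Xist* ΔB+C gave −0.83 ± 0.23 (adjusted p = 0.0243). *T*, which encodes brachyury, passed in neither line, at −1.17 ± 0.89 (adjusted p = 0.626) and −0.63 ± 0.88 (adjusted p = 0.760), and differed widely between replicates. None of the 4 was at 0 in any library, though *Mesp1* did not pass the filter. In bulk RNA, fewer cells of a type and less RNA per cell cannot be told apart, and the part of these cells in the *Msx1* values was not tested.

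**Figure D2:**
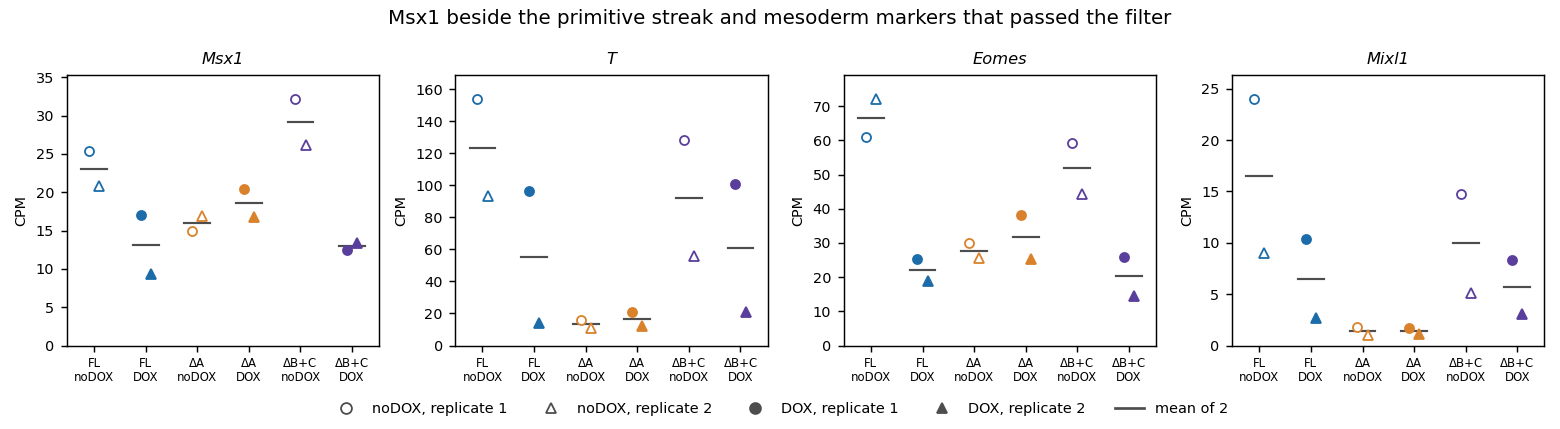
CPM (y axis) of *Msx1* and of the 3 primitive streak and mesoderm markers that passed the filter, by line and condition (x axis), with symbols by condition and replicate and bars at the mean of 2. *Msx1* and *Eomes* were lower in both DOX libraries than in both noDOX libraries of *Xist* FL and *Xist* ΔB+C, while in *Xist* ΔA the values overlapped.

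*Msx2*, the close relative of *Msx1*, did not pass with DOX in any line. Its 12 values lay between 5.70 and 17.0 CPM. In *Xist* FL it was at 17.0 and 9.79 CPM without DOX and at 15.8 and 7.07 CPM with DOX, so that the replicates were further apart than the conditions. The *Xist* ΔB+C values were 16.4 and 10.4 CPM without DOX and 15.6 and 12.6 CPM with it. The log2 fold changes were −0.24 ± 0.39 for *Xist* FL, 0.30 ± 0.40 for *Xist* ΔA and 0.04 ± 0.39 for *Xist* ΔB+C, with adjusted p of 0.841 or more.

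The *Id* genes encode helix‐loop‐helix proteins that lack a DNA‐binding region and hold E proteins in inactive pairs. All 3 had negative log2 fold changes with DOX in *Xist* FL and *Xist* ΔB+C, and 1 of these 6 values passed, that of *Id3* in *Xist* FL with the block. *Id3* was at 75.3 and 77.6 CPM in *Xist* FL noDOX and at 62.0 and 60.8 CPM in *Xist* FL DOX. The DOX libraries lay below the noDOX libraries with little spread, at a log2 fold change of −0.32 ± 0.11 (adjusted p = 0.238), and the block gave −0.32 ± 0.08 (adjusted p = 0.0242). This is 0.803 of the noDOX level. With the block the call was lost without *Xist* FL noDOX replicate 1 (adjusted p = 0.101), noDOX replicate 2 (0.112) or DOX replicate 2 (0.181).

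*Id3* in *Xist* ΔB+C was at 67.3 and 76.1 CPM without DOX and at 60.9 and 65.4 CPM with DOX, and the fold change was −0.22 ± 0.11 (adjusted p = 0.329). *Id2* in that line was at 77.0 and 76.1 CPM without DOX and at 58.2 and 56.3 CPM with DOX. These were the most closely spaced replicates of *Id2*, and its fold change was −0.45 ± 0.19 (adjusted p = 0.243). *Id1* there was at 122 and 144 CPM without DOX and at 96.5 and 120.1 CPM with DOX, a fold change of −0.33 ± 0.15 (adjusted p = 0.287). All 3 *Id* genes were lower in both DOX libraries than in both noDOX libraries of *Xist* ΔB+C, as 43.1% of all genes did not overlap there, and none of them passed in either fit.

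In *Xist* FL the noDOX and DOX values of *Id1* overlapped, at 131 and 106 CPM against 109 and 101 CPM. Those of *Id2* overlapped too, at 84.0 and 62.1 CPM against 75.5 and 59.3 CPM. Their fold changes were −0.18 ± 0.15 (adjusted p = 0.674) and −0.12 ± 0.19 (adjusted p = 0.829). In *Xist* ΔA the 3 fold changes were near 0, at 0.04 ± 0.15 for *Id1*, −0.04 ± 0.19 for *Id2* and −0.04 ± 0.11 for *Id3*.

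*Bmp4*, the ligand, had the largest spread between replicates of the 9 genes, with an SD within groups of 0.68 on the log2 scale. In *Xist* FL it was at 10.6 and 5.50 CPM without DOX and at 14.8 and 5.26 CPM with DOX. The *Xist* ΔB+C values were 10.3 and 4.51 CPM without and 12.5 and 8.11 CPM with DOX, and those of *Xist* ΔA were 5.43 and 7.88 CPM without DOX and 5.21 and 8.56 CPM with DOX. The log2 fold changes were 0.30 ± 0.56 for *Xist* FL, 0.45 ± 0.56 for *Xist* ΔB+C and 0.09 ± 0.57 for *Xist* ΔA, with adjusted p of 0.727 or more. The gene interval of *Bmp4* overlaps that of *Gm15217* on the opposite strand, and the counting was not set to use strand. Whether their exons overlap was not examined.

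*Smad7* encodes an inhibitory SMAD that acts on both BMP and TGF‐β receptors. In *Xist* FL it was at 96.6 and 91.4 CPM without DOX and at 118 and 113 CPM with DOX. Both DOX libraries lay above both noDOX libraries, at a log2 fold change of 0.29 ± 0.08 (adjusted p = 0.159), and the gene passed with the block at 0.29 ± 0.07 (adjusted p = 0.0211), a ratio of 1.23. With the block the call was lost without *Xist* FL noDOX replicate 2 (adjusted p = 0.201), DOX replicate 1 (0.122) or DOX replicate 2 (0.0908). The *Xist* ΔB+C libraries had it at 102 and 93.0 CPM without and at 106 and 116 CPM with DOX. The groups did not overlap, but the fold change of 0.15 ± 0.08 missed the threshold (adjusted p = 0.360). In *Xist* ΔA its 4 values lay between 106 and 112 CPM, and the fold change was 0.00 ± 0.08.

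*Smad6*, which encodes the inhibitory SMAD more selective for BMP receptors, and *Bambi* did not pass in any line. *Smad6* lay between 7.90 and 14.5 CPM, with log2 fold changes of −0.01 ± 0.33 for *Xist* FL, 0.14 ± 0.33 for *Xist* ΔA and −0.02 ± 0.33 for *Xist* ΔB+C. *Bambi* lay between 10.6 and 15.0 CPM, with log2 fold changes of −0.03 ± 0.17, 0.02 ± 0.17 and −0.04 ± 0.17 in the same order. The smallest adjusted p among these 6 values was 0.932.

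Markers of other cell states were examined beside these genes, and apart from the streak list 1 of them passed with DOX without the block. This was the primed epiblast marker *Fgf5*, which fell in *Xist* ΔB+C by 1.48 ± 0.32 (adjusted p = 0.0434), where 2.94% of all genes passed. With the block, 1 of 7 pluripotency markers rose in *Xist* FL (*Sox2*) and 2 of 7 in *Xist* ΔB+C (*Sox2* and *Zfp42*), where 13.9% and 21.9% of all genes passed. The list had median log2 fold changes of 0.64 and 0.75 without the block, but was split. *Sox2*, *Zfp42*, *Esrrb*, *Klf4* and *Tfcp2l1* were higher with DOX in both replicates of both lines. *Nanog* was lower, from 143 and 203 to 120 and 141 CPM in *Xist* FL and from 123 and 129 to 115 and 125 CPM in *Xist* ΔB+C. *Pou5f1* was lower in both replicates of *Xist* ΔB+C and mixed in *Xist* FL. Of the 4 primed epiblast markers, *Pou3f1* rose in *Xist* FL with the block, and *Fgf5* and *Otx2* fell in *Xist* ΔB+C. In *Xist* FL, *Fgf5* was also lower with DOX, from 42.8 and 62.4 CPM to 23.4 and 25.8 CPM. *Otx2* and *Dnmt3b* were lower there in both replicates too, and none of these falls in *Xist* FL passed. Both tested neural ectoderm markers, *Sox1* and *Pax6*, rose in *Xist* FL with the block, by 0.78 ± 0.20 (adjusted p = 0.0251) and 1.09 ± 0.19 (adjusted p = 0.00424), and the list of 3 with *Neurog2* summed to 7.18 to 12.6 CPM without and 14.7 to 21.6 CPM with DOX. Neither passed in *Xist* ΔB+C, where with the block 1 of 6 primitive endoderm markers (*Dab2*) and 1 of 3 tested trophoblast markers (*Krt7*) rose and 1 of 4 tested fibroblast markers (*Twist1*) fell. With the block 21.9% of all genes passed in *Xist* ΔB+C, and the fibroblast list had a median log2 fold change of 0.19 without it. The summed endoderm list there was at 27.0 to 39.1 CPM without and 41.1 to 54.8 CPM with DOX, and the trophoblast list, with 1 gene at 0 in some library, at 27.7 to 28.1 and 39.0 to 40.1 CPM. The trophoblast markers were split. *Tfap2c* went from 12.9 and 20.1 CPM to 23.9 and 31.5 CPM and *Krt7* rose, while *Cdx2* went from 11.5 and 5.50 CPM to 9.59 and 4.66 CPM. No marker of these lists passed in *Xist* ΔA in either fit. The part of these cells in the values of the 9 genes was not tested.

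**Figure D3:**
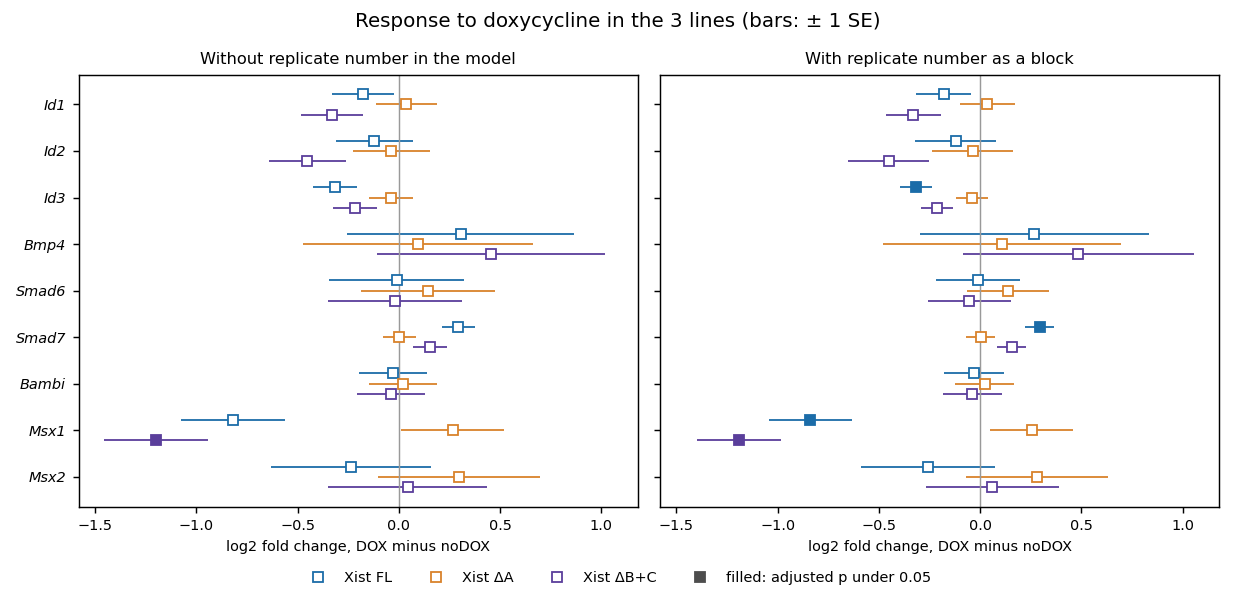
Log2 fold change of DOX against noDOX (x axis) for the 9 genes (y axis) in the 3 lines, with bars of 1 SE, without (left) and with (right) the replicate number as a block. Filled squares have an adjusted p under 0.05: *Msx1* in *Xist* ΔB+C on both sides, and *Id3*, *Smad7* and *Msx1* in *Xist* FL on the right. The *Xist* ΔA values lie between −0.04 and 0.30.

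Counted without a test, 3 members did not overlap between the DOX and noDOX libraries of *Xist* FL, where 48.2% of all genes did not, and 5 members in *Xist* ΔB+C, where 43.1% did not. In *Xist* ΔA it was 2 members (*Smad7* below and *Msx2* above), where 24.6% of all genes did not overlap. With 2 libraries a group, lack of overlap is thus common. These counts used CPM scaled to library totals alone. With the TMM factors the fitted change of *Smad7* in *Xist* ΔA was 0.003 ± 0.08, so its place below depended on the scaling. The median log2 fold change of the 9 members was −0.12 for *Xist* FL, 0.04 for *Xist* ΔA and −0.04 for *Xist* ΔB+C, beside medians over all tested genes of −0.01, 0.00 and 0.00.

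*Xist* ΔA gave no member past the threshold with edgeR, DESeq2 or limma‐voom, and 0 of 9 at an unadjusted p under 0.05. Few genes of any kind passed there: 0.00758% of all tested genes without the block, which is 1 gene, *Xist* itself, and 0.0227% with it. In *Xist* FL, 3 members had an unadjusted p under 0.05 without the block, and DESeq2 called 1 (*Smad7*) while limma‐voom called 0.

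The difference of the DOX response between lines was tested directly. By microscopy of *Xist* RNA, the paper found *Xist* induced in only part of the DOX cells, and that part varied between lines. The responses here are those of whole cultures and were not adjusted for that part or for the level of *Xist* RNA. For *Xist* ΔB+C minus *Xist* FL, no member passed in either fit, and neither did any other gene (0% without the block and 0% with it). At an unadjusted p under 0.05 there were 0 members and 106 genes with edgeR, and DESeq2 and limma‐voom also called 0 genes. The *Msx1* difference was −0.38 ± 0.36 (adjusted p = 1), an error nearly as large as the difference.

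For *Xist* ΔB+C minus *Xist* ΔA, the *Msx1* difference was −1.46 ± 0.36 (adjusted p = 0.164) without the block, where 0.205% of all genes passed. It passed with the block at −1.44 ± 0.29 (adjusted p = 0.0182), as the 1 member of 9, where 9.32% of all genes did. DESeq2 also called it, at −1.45 (adjusted p = 0.00961), and limma‐voom did not, at −1.47 (adjusted p = 0.144). With the block the call was lost without *Xist* ΔA noDOX replicate 1 (adjusted p = 0.0575), *Xist* ΔA DOX replicate 1 (0.0751), *Xist* ΔB+C noDOX replicate 1 (0.0525) or replicate 2 (0.0906), or *Xist* ΔB+C DOX replicate 1 (0.0549).

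For *Xist* ΔA minus *Xist* FL, no member passed. This held for all genes without the block (0%, with 981 genes and 2 members, *Smad7* and *Msx1*, at an unadjusted p under 0.05), while 3.31% of genes passed with it. The *Msx1* difference was 1.08 ± 0.36 (adjusted p = 0.539), or 1.09 ± 0.29 in the blocked fit (adjusted p = 0.0786). DESeq2 called 145 genes here, with no member among them, and limma‐voom 0. These 3 differences share their lines pairwise and are not independent of each other.

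Without DOX, the lines were compared to see whether the members differed before *Xist* was induced. *Id1* was highest in *Xist* ΔA, at 166 and 179 CPM against 131 and 106 CPM in *Xist* FL. The groups did not overlap, and the log2 difference was 0.52 ± 0.15, a ratio of 1.44 (adjusted p = 0.0638). With the block it passed at 0.52 ± 0.14 (adjusted p = 0.0166), and this was lost without *Xist* FL noDOX replicate 2 (adjusted p = 0.101, with the difference at 0.30), *Xist* ΔA noDOX replicate 1 (0.0726) or replicate 2 (0.0807). Without the block it passed when *Xist* ΔB+C DOX replicate 1 or replicate 2 was left out, with adjusted p down to 0.0462. *Id1* in *Xist* ΔB+C noDOX was at 122 and 144 CPM, which overlapped the *Xist* FL values and lay below those of *Xist* ΔA.

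*Smad7* was at 112 and 107 CPM in *Xist* ΔA noDOX and at 96.6 and 91.4 CPM in *Xist* FL noDOX. The difference of 0.20 ± 0.08 passed with the block alone (adjusted p = 0.158 without and 0.0471 with it), and the call was lost (adjusted p of 0.0576 to 0.217) without any 1 of the 10 libraries other than those of *Xist* ΔB+C DOX. In all, 2 of 9 members passed with the block in this comparison, where 33.4% of all genes did. Without the block 0 of 9 passed with edgeR, 3 had an unadjusted p under 0.05, DESeq2 called 1 (*Id1*) and limma‐voom 0, where 9.84% of all genes passed with edgeR.

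Both *Msx* genes had their lowest noDOX values in *Xist* ΔA. *Msx1* was at 14.9 and 16.9 CPM in *Xist* ΔA noDOX, below all 4 noDOX libraries of the other lines. *Xist* ΔB+C exceeded *Xist* ΔA by 0.90 ± 0.25 (adjusted p = 0.0702), which passed with the block at 0.89 ± 0.20 (adjusted p = 0.0111). With the block the call was lost without *Xist* ΔA noDOX replicate 1 (adjusted p = 0.0927), *Xist* ΔB+C noDOX replicate 1 (0.0703) or replicate 2 (0.0684). Without the block it passed when either *Xist* FL DOX library was left out, with adjusted p down to 0.0247. *Xist* ΔA minus *Xist* FL was −0.56 ± 0.25 (adjusted p = 0.206) and missed the threshold in both fits.

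*Msx2* was at 5.70 and 7.94 CPM in *Xist* ΔA noDOX, against 17.0 and 9.79 CPM in *Xist* FL and 16.4 and 10.4 CPM in *Xist* ΔB+C. *Xist* ΔA lay below both, but neither difference passed in either fit. With the block the log2 difference of *Xist* ΔA from *Xist* FL was −0.94 ± 0.34 (adjusted p = 0.0722), and without it the adjusted p was 0.155. For *Xist* ΔB+C against *Xist* ΔA, 1 of 9 members passed with the block (*Msx1*), where 27.9% of all genes did. Without it 0 of 9 did with edgeR, 3 had an unadjusted p under 0.05, DESeq2 called 1 (*Msx1*) and limma‐voom 0, where 6.69% of all genes passed with edgeR.

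Of the 3 tested streak markers, 2 were lower in *Xist* ΔA than in *Xist* FL without DOX, and all 3 with the block. Of all genes, 9.84% passed without the block and 33.4% with it. *Mixl1* was at 1.82 and 1.03 CPM in *Xist* ΔA noDOX and 24.0 and 8.98 CPM in *Xist* FL noDOX, a log2 difference of −3.54 ± 0.86 (adjusted p = 0.0351). *Eomes* was at 30.0 and 25.5 CPM against 60.9 and 72.0 CPM, a difference of −1.28 ± 0.29 (adjusted p = 0.0279). With the block, markers of other lists also passed in this comparison: *Pou5f1* and *Sox2* higher and *Nanog* lower (of 7 pluripotency markers), *Otx2* and *Pou3f1* higher (of 4), *Sox1* higher (of 2), *Gata4* and *Foxa2* higher (of 6), *Twist1* higher and *Thy1* lower (of 4), and 0 of 3 trophoblast markers. None of these passed without the block, and 33.4% of all genes passed with it. In *Xist* ΔB+C against *Xist* ΔA, the blocked fit had all 3 streak markers higher and *Sox2*, *Otx2*, *Pou3f1*, *Sox1* and *Foxa2* lower, where 27.9% of all genes passed. No marker passed without the block in that comparison. The part of these cells in the *Id1*, *Smad7* and *Msx* values was not tested. The noDOX libraries of each line enter both its DOX response and these differences, so the 2 kinds of comparison are not independent.

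*Xist* ΔB+C and *Xist* FL, from which it was derived, gave no member past the threshold without DOX in either fit. No member reached an unadjusted p under 0.05, DESeq2 and limma‐voom called none, and 0.0227% of all genes passed without the block and 0.993% with it. The differences of the 9 members lay between −0.13 ± 0.56 (*Bmp4*) and 0.34 ± 0.25 (*Msx1*).

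**Figure D4:**
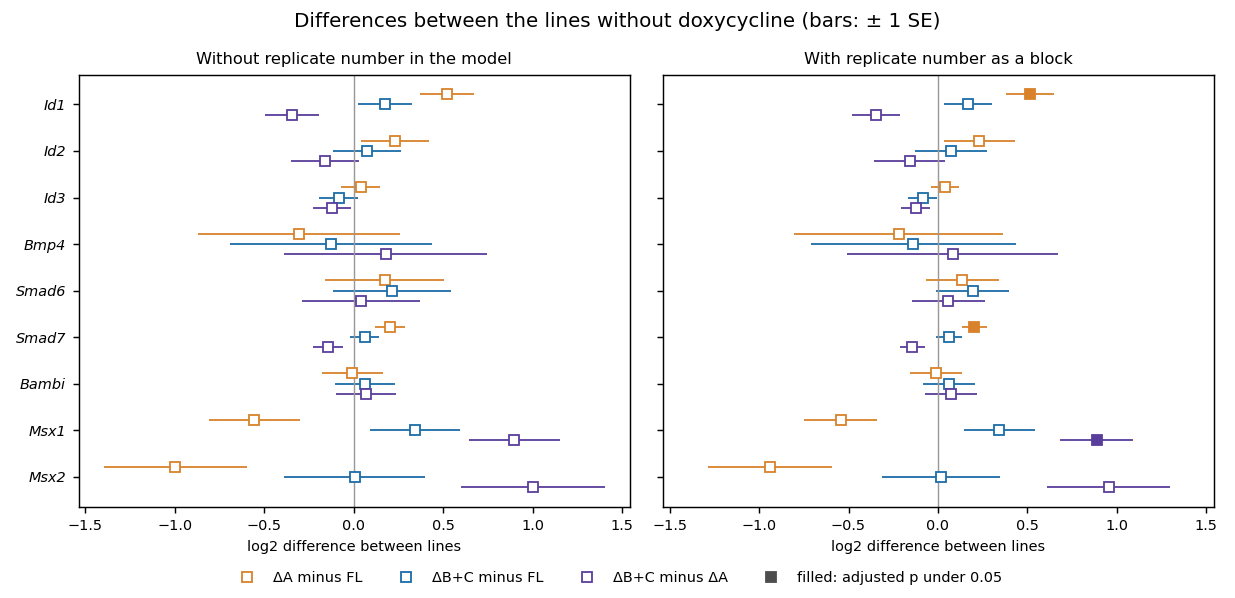
Log2 difference between lines without DOX (x axis) for the 9 genes (y axis), with bars of 1 SE, without (left) and with (right) the replicate number as a block. Filled squares have an adjusted p under 0.05. No square is filled on the left, and *Id1* and *Smad7* (ΔA minus FL) and *Msx1* (ΔB+C minus ΔA) are filled on the right.

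Replicate 2 differed from replicate 1 across all groups in 46.3% of all tested genes, in the fit with the replicate number. Among the members *Smad6* passed, higher in replicate 2 by 0.43 ± 0.12 (adjusted p = 0.0128). It was at 13.3, 14.5, 12.2 and 14.3 CPM in the replicate 2 libraries of *Xist* ΔA and *Xist* ΔB+C and at 8.55, 8.94, 9.80 and 7.90 CPM in their replicate 1 libraries. In *Xist* FL its 4 values lay between 9.31 and 9.73 CPM, so replicate 2 was higher in 5 of 6 pairs but by little in that line. *Bmp4* and *Msx2* differed by −0.51 ± 0.34 (adjusted p = 0.266) and −0.42 ± 0.20 (adjusted p = 0.119), and *Msx2* was lower in replicate 2 in 5 of 6 pairs.

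The other genes of the pathway were taken from 8 lists with 69 genes, of which 56 passed the filter. Without the block, DOX gave 0 of 56 past the threshold for *Xist* FL, 0 for *Xist* ΔA and 2 for *Xist* ΔB+C, both higher. Of all tested genes, 1.24%, 0.00758% and 2.94% passed in the same order. DESeq2 called 3, 0 and 6 of the 56 and limma‐voom 0, 0 and 1 in the same order. With DESeq2, 11, 1 and 10 of the 56 had an unadjusted p under 0.05. With the block, 3 rose and 5 fell in *Xist* FL, 0 passed in *Xist* ΔA, and 6 rose and 5 fell in *Xist* ΔB+C. The 8 of 56 in *Xist* FL and the 11 of 56 in *Xist* ΔB+C stand beside 13.9% and 21.9% of all tested genes, so the lists as a whole were near the share of all genes.

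*Eng*, which encodes the coreceptor endoglin, rose in *Xist* ΔB+C from 40.9 and 30.6 CPM to 61.2 and 93.2 CPM, a log2 fold change of 1.08 ± 0.24 (adjusted p = 0.0466). It was the 1 of 9 receptors and coreceptors that passed, where 2.94% of all genes did. In *Xist* FL it was at 31.2 and 26.1 CPM without and 46.6 and 65.0 CPM with DOX, and it did not pass in either fit. *Tob1*, which encodes an antiproliferative protein known to restrain SMAD signalling, rose in *Xist* ΔB+C from 19.3 and 18.6 CPM to 36.1 and 40.0 CPM, by 0.97 ± 0.15 (adjusted p = 0.0135). In *Xist* FL it went from 26.5 and 24.2 CPM to 39.2 and 44.5 CPM, at 0.72 ± 0.15 (adjusted p = 0.0596), and passed once the block was in the model (adjusted p = 0.00281). In *Xist* ΔA it was at 29.9 and 31.2 CPM without and 25.1 and 33.7 CPM with DOX. When *Xist* ΔB+C DOX replicate 2 was left out, neither gene passed without the block.

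Among the 9 intracellular inhibitors, 3 rose in *Xist* FL with the block and none fell, where 13.9% of all genes passed. Beside *Tob1* these were *Smurf1*, a ubiquitin ligase for SMADs, by 0.33 ± 0.08 (adjusted p = 0.0216), and *Ski*, a SMAD corepressor, by 0.38 ± 0.08 (adjusted p = 0.0115). With the block 3 also rose and none fell in *Xist* ΔB+C, where 21.9% of all genes passed. These were *Tob1*, *Smurf1* by 0.43 ± 0.08 (adjusted p = 0.00386) and *Nedd4l*, a further ubiquitin ligase, by 0.59 ± 0.18 (adjusted p = 0.0395). The difference of the response was tested for *Tob1* with the block, at −0.74 ± 0.17 for *Xist* ΔA minus *Xist* FL (adjusted p = 0.0361) and 0.99 ± 0.17 for *Xist* ΔB+C minus *Xist* ΔA (adjusted p = 0.0064). In the same fit *Ski* differed by −0.48 ± 0.12 in the first of these (adjusted p = 0.047) and *Smurf1* by 0.44 ± 0.11 in the second (adjusted p = 0.0365). None of these 4 passed without the block.

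Of the 10 extracellular antagonists and modulators, *Fst* and *Bmper* passed with the block in *Xist* FL, both lower, where 13.9% of all genes passed. *Fst*, which encodes follistatin, an inhibitor of activins and some BMPs, was at 47.5 and 48.6 CPM without and 28.4 and 18.0 CPM with DOX, at a log2 fold change of −1.11 ± 0.21 (adjusted p = 0.0126). *Bmper* fell by 1.16 ± 0.28 (adjusted p = 0.0213) from about 2 CPM. No gene of this list passed in *Xist* ΔB+C. Of the 3 tested genes among the receptor SMADs and *Smad4*, *Smad5* rose in *Xist* ΔB+C with the block, by 0.24 ± 0.08 (adjusted p = 0.0434). There 21.9% of all genes passed.

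None of the 7 other BMP ligands tested and none of the 3 E protein genes, *Tcf3*, *Tcf4* and *Tcf12*, passed with DOX in any line in either fit. Of the 10 other BMP target genes tested, *Id4* among them, none passed without the block. With it *Dlx5* fell by 0.80 ± 0.25 (adjusted p = 0.0391) and *Zeb2* rose by 1.00 ± 0.27 (adjusted p = 0.0225). Both were in *Xist* ΔB+C, where 21.9% of all genes passed. The median log2 fold change of the list in *Xist* ΔB+C was 0.06 without the block, beside 0.00 over all genes.

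The lists held 5 tested X‐linked genes. The blocked fit had 3 of them lower for *Xist* FL, 4 for *Xist* ΔB+C and 0 for *Xist* ΔA. Of all tested genes, 13.9%, 21.9% and 0.0227% passed in the same order, counting both directions. The paper reports that the full‐length and ΔB+C RNAs silenced most X‐linked genes, while the ΔA RNA did not. Whether the falls listed here differ from those of other X‐linked genes was not tested. *Gpc3*, which encodes a glypican, fell by 1.16 ± 0.15 in *Xist* FL (adjusted p = 0.000673), as it did by 1.15 ± 0.14 in *Xist* ΔB+C (adjusted p = 0.000595). *Xiap*, an apoptosis inhibitor that also links BMP receptors to TAK1, fell by 0.79 ± 0.12 (adjusted p = 0.00202) and 0.67 ± 0.12 (adjusted p = 0.00345). *Chrdl1*, a BMP antagonist, fell by 1.11 ± 0.33 (adjusted p = 0.0484) and 1.51 ± 0.36 (adjusted p = 0.0135). *Dusp9*, a phosphatase for ERK, fell by 0.87 ± 0.24 in *Xist* ΔB+C (adjusted p = 0.0408). The response of *Gpc3* differed between *Xist* ΔA and both other lines with the block, by 1.15 ± 0.20 from *Xist* FL (adjusted p = 0.0156) and, as *Xist* ΔB+C minus *Xist* ΔA, by −1.13 ± 0.20 (adjusted p = 0.00984).

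**Figure D5:**
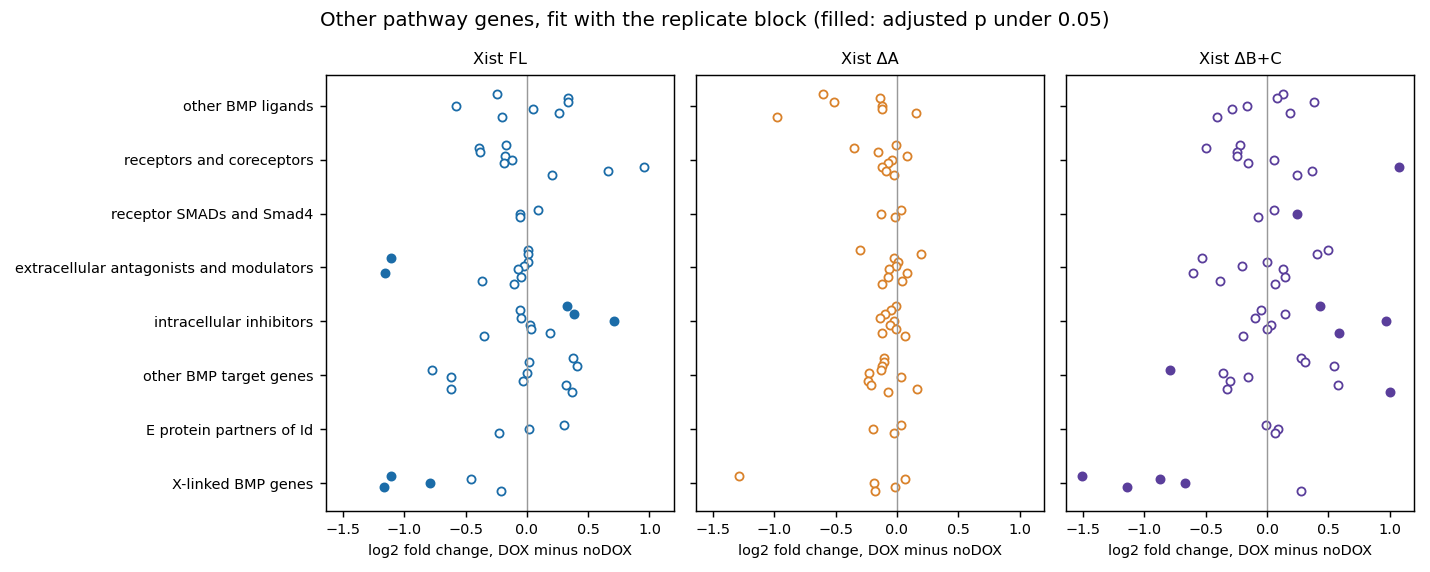
Log2 fold change of DOX against noDOX (x axis) of the 56 tested genes of 8 other pathway lists (y axis) in the 3 lines, from the fit with the replicate block. Each point is 1 gene, filled where the adjusted p is under 0.05: 8 points for *Xist* FL, 0 for *Xist* ΔA and 11 for *Xist* ΔB+C.

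Without DOX, 3 of the 56 passed in *Xist* ΔA against *Xist* FL without the block, and 11 were higher and 7 lower with it, beside 9.84% and 33.4% of all genes, so that the blocked count was near the share of all genes. *Skil*, which encodes the SMAD corepressor SnoN, was at 362 and 391 CPM in *Xist* ΔA against 224 and 256 CPM in *Xist* FL, a difference of 0.63 ± 0.11 (adjusted p = 0.0112). *Dlx5*, a homeobox gene, was higher by 1.35 ± 0.27 (adjusted p = 0.0176), and *Nbl1*, which encodes the BMP antagonist DAN, differed by −1.17 ± 0.21 (adjusted p = 0.0109). *Xist* ΔB+C against *Xist* ΔA showed *Skil* lower by −0.68 ± 0.11 (adjusted p = 0.0108), *Tob1* at −0.66 ± 0.15 (adjusted p = 0.0345) and *Nbl1* higher by 0.96 ± 0.21 (adjusted p = 0.0296), and 10 higher and 8 lower with the block, beside 6.69% and 27.9% of all genes. The other genes that passed only with the block in *Xist* ΔA against *Xist* FL were the ligand genes *Bmp2* and *Bmp8b*, the receptor genes *Acvr1* and *Rgmb*, *Chrd*, *Smurf2*, *Ski*, *Ppm1a*, *Id4*, *Dlx3*, *Hand1*, *Tcf4*, *Dusp9*, *Gpc3* and *Gpc4*. In *Xist* ΔB+C against *Xist* ΔA they were *Bmp2*, *Bmp8b*, *Gdf6*, *Acvr1*, *Smad1*, *Smad5*, *Chrd*, *Twsg1*, *Dlx3*, *Gata2*, *Gata3*, *Hand1*, *Tcf4*, *Tcf12* and *Gpc3*. *Bmp2* was at 0.59 to 0.69 CPM in *Xist* ΔA noDOX and at 0.98 to 3.95 CPM in *Xist* FL noDOX. For *Xist* ΔB+C against *Xist* FL, 0 of 56 passed in either fit, and 5 had an unadjusted p under 0.05 with DESeq2, which called 0, as did limma‐voom.

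Between the replicates, 6 of the 56 were higher and 32 lower in replicate 2, where 2996 and 3106 of all genes were. The largest were *Nog*, which encodes the BMP antagonist noggin, at −1.94 ± 0.55 (adjusted p = 0.0302), *Bmp2* at −1.46 ± 0.25 (adjusted p = 0.000983) and *Bmp1* at −1.03 ± 0.21 (adjusted p = 0.00645). Among the receptor genes, *Bmpr2* was lower in replicate 2 by −0.71 ± 0.08 (adjusted p = 0.00017), with *Bmpr1b* at −0.53 and *Rgmb* at −0.49. Other differences were −0.37 for *Smad1*, −0.58 for *Gdf6*, −0.49 for *Bmp8b*, −0.88 for *Hand1*, −0.66 for *Dlx3* and −0.51 for *Tfap2a*. The intracellular inhibitors *Pmepa1*, *Nedd4l* and *Ppm1a* were lower by −0.55, −0.48 and −0.32, and the E protein genes *Tcf3*, *Tcf4* and *Tcf12* differed by 0.19, −0.18 and −0.17. *Chrd* and *Dusp9* were higher, by 0.65 and 0.66, and *Gpc4* and *Gpc3* differed by −0.80 and −0.49.

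Across the 12 libraries, the tested genes whose log2 CPM followed *Id1* most closely were *Mblac1*, *Arid1b* and *Slc7a11*, with Pearson coefficients of 0.965, 0.961 and 0.960. *Arid1b*, a chromatin remodeller subunit, was at 61.9 to 73.7 CPM in the 4 *Xist* ΔA libraries and 37.5 to 57.0 CPM in the other 8. Those most like *Id2* were *Ppic*, *E2f8* and *Fignl2*, with coefficients of 0.939, 0.909 and 0.889. Those most like *Id3* were *Gprasp2*, *Alg13* and *Rxrg*, with coefficients of 0.966, 0.942 and 0.934, of which *Gprasp2* and *Alg13* are X‐linked. *Alg13* was at 143 to 149 CPM in the DOX libraries of *Xist* FL and *Xist* ΔB+C and at 170.1 to 221 CPM in the other 8. These genes were picked as the closest of 13191, and the libraries share lines and replicate numbers, so the coefficients are a description.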

How the data were processed

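RNA‐seq counts were available for 12 libraries, 2 replicates for each line and condition. The authors mapped read pairs to mm10 with TopHat 2.1.0 and counted pairs over refFlat exons with featureCounts 1.5.1, and the deposited values are whole counts per gene without normalization. The counting was not set to use strand, so sense and antisense reads over an exon cannot be told apart. Groups came from the labels. The paper calls the replicates biological duplicates, while the labels do not detail whether they were separate cultures. The p‐values measure the spread between these samples.

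Genes at 1 CPM or more in 6 or more libraries were tested with edgeR 4.0.16 in R 4.3.3 (quasi‐likelihood, robust, 6 group means, TMM factors of 0.978 to 1.02 from expressed autosomal genes), with Benjamini–Hochberg adjustment over all 13191 genes and a threshold of 0.05. SE is the fold change divided by the square root of F. The biological coefficient of variation was 0.173, and 0.088 in the fit with the replicate block. Replicate numbers were taken from the labels. In all 15 pairs of groups, the deviations of same‐numbered libraries from their group means correlated over 12721 autosomal genes (0.390 to 0.782), so the blocked fit is also given. Counts of the members were 155 or more, and counting noise was not separated from replicate spread.

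The members and gene lists were chosen with earlier results of these data known. Named were the 9 members, *Xist*, listed pathway genes past the threshold (all where a list had up to 3, otherwise the 3 largest by size; those past it only with the block are named beside them), and the 3 genes most correlated with each *Id* gene. Marker lists were examined beside the results. Fibroblast markers summed to 19.1 to 60.1 CPM over the 12 libraries. Exon lengths came from GENCODE vM21 and promoters from a table of RefSeq starts, in which 6 of the 9 members were matched. DESeq2 1.42.0, limma‐voom (limma 3.58.1), other scalings and filters, fewer libraries and the block were tried as alternatives. The edgeR, DESeq2 and limma‐voom fits, with and without the block, were tried on simulated counts for DOX against noDOX in *Xist* FL only. The simulated spread was near that of the blocked fit. Figures were drawn with matplotlib 3.10.9.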

Additional observations from a re-analysis of the deposited data

Results flagged for a closer look

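The DOX response of *Msx1* differed between *Xist* ΔB+C and *Xist* ΔA by −1.44 on the log2 scale in the fit with the replicate block (adjusted p = 0.0182), which tests the difference itself. It missed the threshold without the block (adjusted p = 0.164), and the blocked call was lost when any 1 of 5 libraries of these lines was left out. In CPM scaled to library totals alone, *Smad7* was higher with DOX in both replicate pairs of the *Xist* FL and the *Xist* ΔB+C lines. It was lower in both pairs of *Xist* ΔA, though these values differed by little. With the TMM factors the fitted change in *Xist* ΔA was 0.003 ± 0.08, so its negative sign depended on the scaling. The difference of the response was −0.29 for *Xist* ΔA minus *Xist* FL (adjusted p = 0.625, and 0.138 with the block) and 0.15 for *Xist* ΔB+C minus *Xist* ΔA (adjusted p = 0.685, and 0.363 with the block), so the opposite signs did not pass a test. *Msx2* was lower with DOX in both pairs of *Xist* FL and higher in both pairs of *Xist* ΔA, and the difference of 0.53 missed the threshold as well (adjusted p = 0.904, and 0.581 with the block). With 2 pairs a line, opposite signs are a weak observation.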

How the results depend on the processing

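With 2 libraries a group, the precision of the lower genes was limited. The parts of counting noise and of the spread between replicates in this were not tested. A member entered the check of directions only where its edgeR p was under 0.05 without or with the block. No direction reversed among these under any setting, and the smaller changes were not examined. The number of members past the threshold changed as follows. For DOX in *Xist* FL it was 0, and 1 with DESeq2 and 3 with the replicate block. For DOX in *Xist* ΔB+C it was 1, and 0 with library totals or with the libraries of the compared line alone. For *Xist* ΔB+C minus *Xist* ΔA it was 0, and 1 with DESeq2 or the replicate block. For *Xist* ΔA against *Xist* FL without DOX it was 0, and 1 with DESeq2, library totals or the compared lines alone, and 2 with the replicate block. For *Xist* ΔB+C against *Xist* ΔA without DOX it was 0, and 1 with DESeq2, the replicate block or the compared lines alone. For replicate 2 against replicate 1 it was 1, and 2 with DESeq2 or limma‐voom. Leaving out 1 library at a time gave 0 to 1 for DOX in *Xist* ΔB+C and, without DOX, for *Xist* ΔA against *Xist* FL and *Xist* ΔB+C against *Xist* ΔA, 1 to 2 for the replicates and 0 elsewhere. Fits with the block that leave out 1 library were added after seeing the data. The causes of these shifts were not tested, except that library totals and fewer libraries change the scaling and the spread by construction. The replicate block changed no other call of a member.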
